A study of Mus musculus with 2 samples.

Results

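The genes described here are 8 genes of cholesterol synthesis, matched by symbol among the 33696 genes in the files: Srebf2, Insig1, Hmgcs1, Idi1, Fdps, Sqle, Lss and Msmo1. They were followed across the cell classes in preparations of mouse dura mater, the outer membrane around the brain, by droplet-based single-cell RNA sequencing. Some classes are of tissue outside the dura. The JVL-14 library comes from female mice 14 days after jugular venous ligature, and the sham library from female mice after sham surgery. The labels give no time since sham surgery, strain, age or number of mice, and cells of 2 meninges shared a well before viable singlets were sorted. Each group has 1 library, so no difference below has a replicate check, and values are described without tests. Differences between mice, dissections or library preparations cannot be told apart from the ligature.

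Cells make cholesterol from acetyl-CoA through the mevalonate pathway. Hmgcs1 makes HMG-CoA at its start, Idi1 and Fdps build the isoprenoid chain, Sqle oxidises squalene, Lss closes the sterol rings and Msmo1 removes methyl groups from them. Srebf2 encodes SREBP2, the membrane-bound transcription factor that is cut and released when sterols are low and then activates these genes. Insig1 encodes a protein of the endoplasmic reticulum that holds the SREBP precursor back and is itself a target of SREBP. Myelin is rich in cholesterol, most of which the myelinating glia make themselves.

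SREBP2 binds a short sterol regulatory element, often near a CCAAT box. The 250 bases before the gene's start are shown for Srebf2, Hmgcs1 and Msmo1, whose windows hold the letters of that element. They are also shown for Insig1, whose window does not. The windows of Idi1 and Lss, not shown, do not hold them either. No link between these letters and the levels below was tested. The sequences are RefSeq's (GRCm38.p6), on the gene's strand, from chr15:82147019-82147268 (plus), chr13:119690101-119690350 (plus), chr8:64733579-64733828 (minus) and chr5:28071162-28071411 (plus), and capitals mark TCACNCCA on either strand.

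Srebf2: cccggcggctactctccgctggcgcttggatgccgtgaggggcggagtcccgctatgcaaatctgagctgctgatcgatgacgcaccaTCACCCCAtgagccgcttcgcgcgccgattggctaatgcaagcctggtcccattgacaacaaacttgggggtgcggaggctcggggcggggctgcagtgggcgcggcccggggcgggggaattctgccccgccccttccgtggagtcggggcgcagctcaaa

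Hmgcs1: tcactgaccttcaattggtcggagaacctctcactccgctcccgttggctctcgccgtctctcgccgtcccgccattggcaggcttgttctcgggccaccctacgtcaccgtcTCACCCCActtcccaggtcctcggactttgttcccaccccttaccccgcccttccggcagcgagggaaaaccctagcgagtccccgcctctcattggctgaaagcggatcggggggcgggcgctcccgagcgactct

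Msmo1: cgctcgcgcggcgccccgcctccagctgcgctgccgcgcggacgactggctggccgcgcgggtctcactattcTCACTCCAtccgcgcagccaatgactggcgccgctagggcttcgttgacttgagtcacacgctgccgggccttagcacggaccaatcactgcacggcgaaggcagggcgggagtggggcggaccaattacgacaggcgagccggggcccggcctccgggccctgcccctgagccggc

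Insig1: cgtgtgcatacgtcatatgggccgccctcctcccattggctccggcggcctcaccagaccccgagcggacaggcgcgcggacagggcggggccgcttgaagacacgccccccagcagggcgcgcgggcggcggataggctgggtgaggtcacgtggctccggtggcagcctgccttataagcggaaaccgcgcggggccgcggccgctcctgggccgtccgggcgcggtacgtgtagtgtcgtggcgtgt

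The Srebf2 window reads TCACCCCA from 162 bases before the gene's start, the Hmgcs1 window has the same letters from 137 bases before it, and the Msmo1 window reads TCACTCCA from 177 bases before it. Windows were given for 6 of the 8 genes, and 3 of the 6 held TCACNCCA, against 3.67% of 32851 mouse windows of the same length. All 6 held CCAAT on either strand, against 33.8% of all windows, and the 2 motifs did not overlap. A match of letters is not shown to be a bound site.

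Both libraries had ample depth for abundant genes, with 18796260 UMIs (unique molecular identifiers, counted molecules) over 3004 barcodes in JVL-14 and 33996641 over 5495 in sham, and 2 barcode sequences occurred in both. After filtering, 2473 JVL-14 and 4670 sham cells remained, and cell classes were rebuilt from marker genes, so each name means cells like that type. All 8 genes were left out of the clustering. Levels are counts per 1e+06 UMIs of the class (CPM), and brackets hold 95% intervals for counting error only, which understate the error when a handful of barcodes supply most counts. A gene counts as measured in a class with a mean of at least 20 CPM and at least 20 UMIs over both libraries. Summed over all retained cells, Fdps had 63.5 CPM in JVL-14 and 49.6 CPM in sham, Hmgcs1 63.0 CPM in JVL-14 and 46.6 CPM in sham, Insig1 44.0 CPM in JVL-14 and 54.5 CPM in sham, Msmo1 36.7 CPM in JVL-14 and 30.8 CPM in sham, Srebf2 33.7 CPM in JVL-14 and 30.3 CPM in sham, Idi1 30.3 CPM in JVL-14 and 26.5 CPM in sham, and Sqle 16 CPM in JVL-14 and 12.6 CPM in sham. Lss had 59 UMIs in JVL-14 and 88 UMIs in sham and was measured in none of the 11 classes that were compared, those in which both libraries had 50 cells or more.

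Among classes with at least 50 cells in a library, glial cells had the highest summed level of the 8 genes in both. The Schwann or glial class stood at 3489 CPM (3255 to 3737) in JVL-14 and 793 CPM (684 to 914) in sham. The class named arachnoid barrier, after the cells that seal the inner face of the dura, came next. It had 573 CPM (532 to 618) in JVL-14 and 468 CPM (448 to 489) in sham. Olfactory sensory neurons had 314 CPM in JVL-14 and 243 CPM in sham, and neutrophil precursors had 298 CPM in JVL-14 and 302 CPM in sham. Fibroblasts were lower, at 189 CPM in JVL-14 and 191 CPM in sham, near osteoblast lineage cells at 203 CPM in JVL-14 and 191 CPM in sham. B precursors had 184 CPM in JVL-14 and 181 CPM in sham. Macrophages had 162 CPM in JVL-14 and 144 CPM in sham, and maturing neutrophils 131 CPM in JVL-14, at a ratio to sham of 1.31 (0.97 to 1.76). Erythroid cells were lowest, at 59.0 CPM in JVL-14 and 7.42 CPM in sham. Haemoglobin filled much of their UMIs. Hbb-bs alone had 320441 CPM in JVL-14 and 398230 CPM in sham in 1 of their 2 clusters, and 446830 CPM in JVL-14 and 451496 CPM in sham in the other. This lowers the CPM of all other genes there, and levels without haemoglobin were not computed, so the erythroid rank holds for CPM only. In JVL-14 the glial, arachnoid barrier and erythroid intervals stood clear of all others, while neighbours from B cells down to maturing neutrophils overlapped. In sham, where 20 classes had at least 50 cells, choroid plexus cells with 423 CPM (370 to 482) overlapped with the arachnoid barrier interval, and pinealocytes had 365 CPM. Choroid plexus cells numbered 0 in JVL-14 and 80 in sham, pinealocytes 0 in JVL-14 and 52 in sham, and skeletal muscle cells 3 in JVL-14 and 249 in sham. The 2 preparations thus held different cells from outside the dura, and the part of this in the differences below was not tested. A neuron cluster below that size had 846 CPM (729 to 977) over 24 JVL-14 cells and 1016 CPM (888 to 1158) over 21 sham cells, its sham interval overlapping with that of sham glia.

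**Figure D1:**
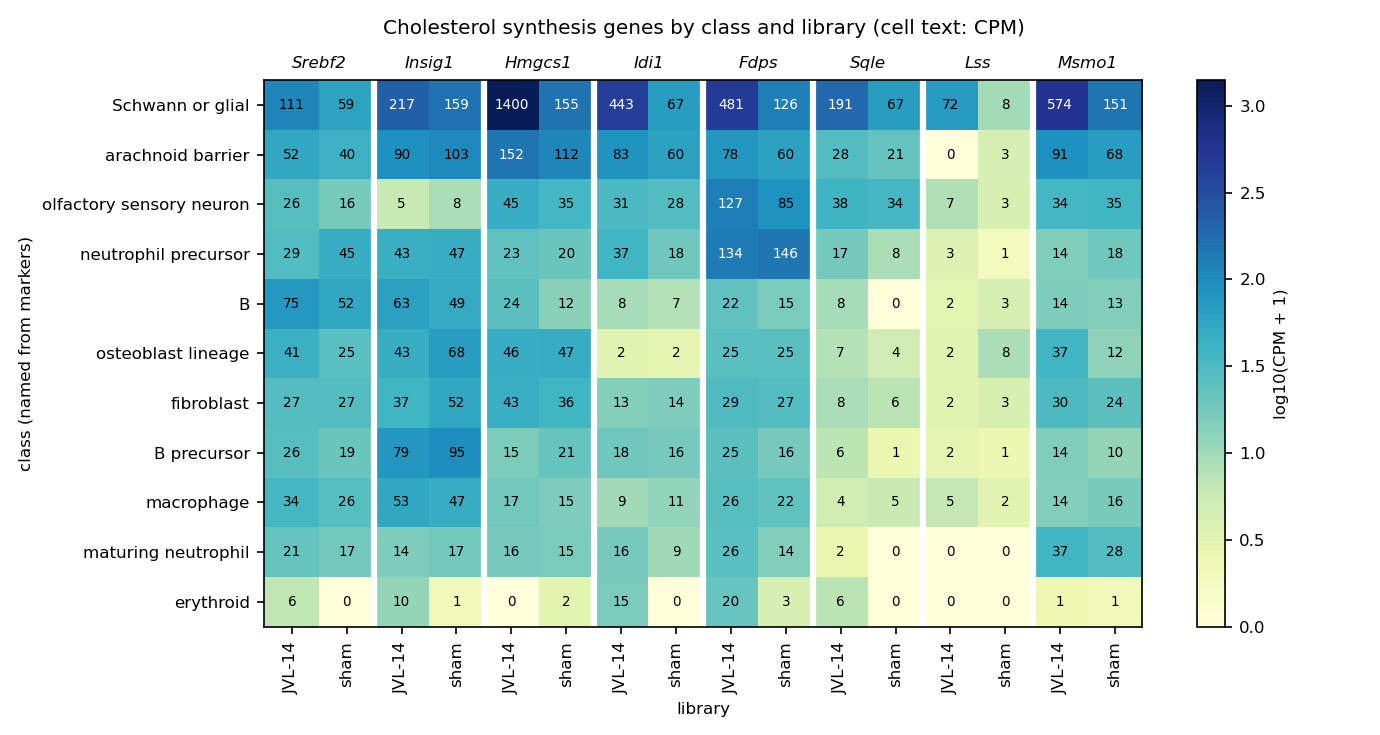
CPM of each gene (columns, JVL-14 left and sham right in each pair) in the 11 compared classes (rows, ordered by the summed JVL-14 level), with the colour on a log10(CPM + 1) scale. The top row, the Schwann or glial class, is darkest for nearly every gene, and Fdps is also dark in neutrophil precursors and olfactory sensory neurons.

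The genes did not all peak in the same place. Fdps had 134 CPM in JVL-14 and 146 CPM in sham neutrophil precursors, and in sham this was its highest class, overlapping with glia at 126 CPM. Insig1 was also high in B precursors, with 78.6 CPM in JVL-14 and 95.2 CPM in sham, but low in olfactory sensory neurons, with 5.09 CPM in JVL-14 and 7.82 CPM in sham. Across 31 profiles of a class in a library, the 28 pairs among the 8 genes had Pearson correlations of log2(CPM + 1) between 0.42 and 0.90, with a median of 0.61. These profiles share libraries, depth and free RNA, so the correlations are descriptions. Outside the sterol and fatty acid lists, the genes with the pattern most like the mean of the 8 were Arpc1a (r = 0.90), Glod4 (0.83), Gipc1 (0.83), Fnta (0.83), Papss1 (0.82), Itfg1 (0.82), Dynll1 (0.82) and Ap2a1 (0.82).

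Depth changes the share of cells in which a gene is seen, so cells with at least 2000 UMIs were also thinned to that depth. Shallower cells were left out. At that depth 75% (55.1% to 89.3%) of 28 JVL-14 glial cells and 62.5% (47.4% to 76.0%) of 48 sham glial cells had a UMI of any of the 8 genes. The unthinned shares, 77.3% of all 75 JVL-14 and 58.0% of all 88 sham glial cells, are of a larger set, so the 2 kinds of share are not directly comparable. The thinned share was 56.4% of 117 JVL-14 and 50.5% of 396 sham arachnoid barrier cells, and 26.5% of 438 JVL-14 and 28.8% of 897 sham fibroblasts. In erythroid cells, the class with the lowest CPM, it was 6.86% of 102 JVL-14 cells and 1.41% of 71 sham cells, with haemoglobin among the 2000 UMIs. Median depths were 1666 UMIs in JVL-14 and 2352 UMIs in sham glia, and 13112 UMIs in JVL-14 and 13059 UMIs in sham erythroid cells. Most of the JVL-14 erythroid UMIs of the 8 genes came from a cluster whose JVL-14 cells were cycling, so this share is no measure of free RNA, which was not measured here.

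In the Schwann or glial class (75 JVL-14 and 88 sham cells) all 7 measured genes were higher in JVL-14, 6 of them at least 1.5-fold. Of all genes measured in this class, 54.7% were higher in JVL-14 and 20.5% at least 1.5-fold higher. The median log2 ratio was 1.91 for the 7 genes and 0.02 for all measured genes. Hmgcs1 had 1400 CPM (329 UMIs) in JVL-14 and 155 CPM (37 UMIs) in sham, a ratio of 9.02 (6.41 to 13). Idi1 had 443 CPM in JVL-14 and 67.1 CPM in sham, a ratio of 6.59 (3.87 to 12). Both act before the sterol rings are formed. Intervals lay above 1 for 5 of the 7 genes, the enzymes, and for 12.6% of all measured genes. Fdps had 481 CPM in JVL-14 and 126 CPM in sham (ratio 3.82, 2.54 to 5.92). Msmo1 had 574 CPM in JVL-14 and 151 CPM in sham (3.80, 2.62 to 5.66), and Sqle 191 CPM in JVL-14 and 67.1 CPM in sham (2.85, 1.58 to 5.41). The regulators were closer to even. Srebf2 had 111 CPM in JVL-14 and 58.7 CPM in sham (1.88, 0.95 to 3.9), and Insig1 had 217 CPM in JVL-14 and 159 CPM in sham (1.36, 0.88 to 2.13). Lss had 17 UMIs in JVL-14 and 2 UMIs in sham glia.

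Much of this glial difference sat in a handful of barcodes that carried oligodendrocyte markers. A single JVL-14 barcode of 39127 UMIs held 421 of the 820 UMIs of the 8 genes, or 51.3%, and 224 of the 329 Hmgcs1 UMIs. It had 44 UMIs of Mog and 105 of Mobp, both myelin genes of oligodendrocytes, and 135 of Ermn. The next barcode held 109 UMIs of the 8 genes with 29 of Mog and 15 of Mobp, and the one after that 43 with 85 of Olig1. No sham glial barcode held over 25 UMIs of the 8 genes, and the 4 sham barcodes with any oligodendrocyte marker UMI (Mog, Mobp, Olig1, Olig2 or Opalin) held 9 or fewer. Of the JVL-14 glial barcodes, 9 had such a UMI. The 5 markers are not unique to oligodendrocytes here, since 84 JVL-14 and 75 sham olfactory sensory neurons had a UMI of them too. All but 1 of these glial barcodes lie in the cluster led by Fabp7, Gpr37l1 and Cmtm5. This cluster had a mean score of 2.66 as Schwann or glial and 2.74 as oligodendrocyte. The first name was given because fewer than 3 oligodendrocyte markers were raised, so it is uncertain. Markers of other cells also differed between the libraries in this cluster. Its 5 astrocyte markers summed to 428 CPM in JVL-14 and 1325 CPM in sham, with Aqp4 at 0 in sham. Its 8 fibroblast markers summed to 1452 CPM in JVL-14 and 467 CPM in sham, with Lum and Pdgfra at 0 in JVL-14 and Gdf10 at 0 in sham. Its 6 arachnoid barrier markers summed to 775 CPM in JVL-14 and 16.3 CPM in sham, with Dpp4 and Cdh1 at 0 in both and Msx1 at 0 in sham. Of that sum 746 CPM in JVL-14 and 5.43 CPM in sham were Cldn11, which oligodendrocytes also make. Their part in the glial difference was not tested.

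**Figure D2:**
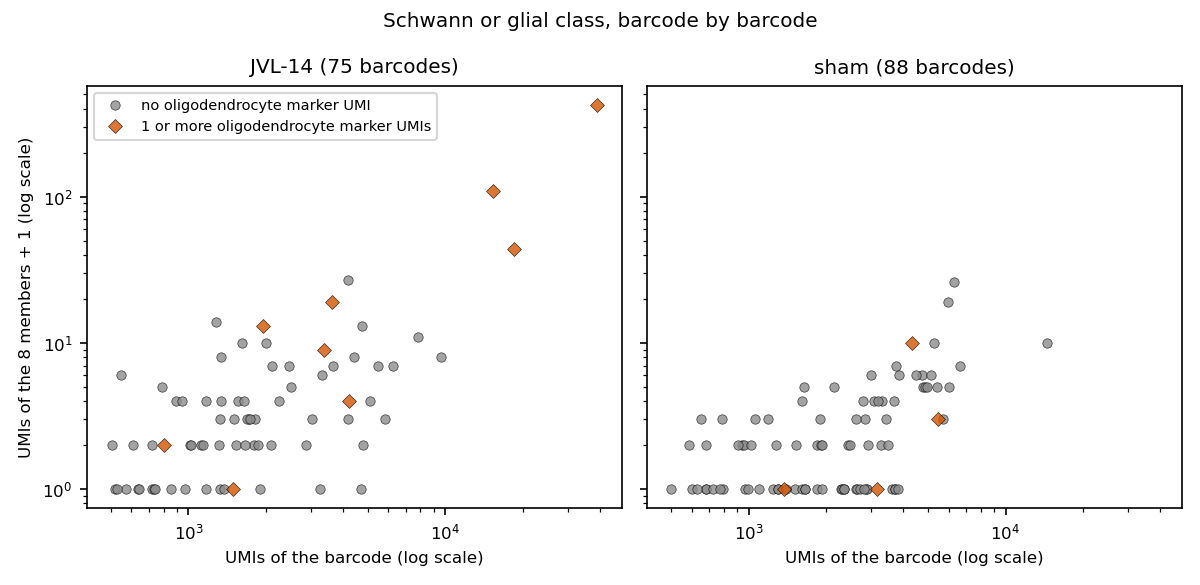
Each point is a barcode of the Schwann or glial class, with its total UMIs (x, log scale) and its UMIs of the 8 genes plus 1 (y, log scale), JVL-14 left and sham right. The 3 JVL-14 barcodes with 421, 109 and 43 UMIs of the 8 genes all carry oligodendrocyte marker UMIs (diamonds), and no sham barcode reaches them.

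Without every glial barcode that had an oligodendrocyte marker UMI, the summed ratio was 1.76 (1.43 to 2.16), from 1399 CPM over 66 JVL-14 cells and 795 CPM over 84 sham cells, against 4.40 (3.75 to 5.18) with them. All 7 measured genes remained higher in JVL-14, where 53.9% of all measured genes were, with a median log2 ratio of 0.88 against 0.05 for all genes. Hmgcs1 then had 293 CPM in JVL-14 and 165 CPM in sham (1.78, 1.12 to 2.83). Idi1 had 184 CPM in JVL-14 and 67.0 CPM in sham (2.75, 1.41 to 5.56), and Fdps 239 CPM in JVL-14 and 129 CPM in sham (1.84, 1.10 to 3.13). The intervals of these 3 genes lay above 1, as did those of 7.68% of all measured genes, and those of Sqle, Srebf2, Msmo1 and Insig1 reached 1. The 12 dissociation genes summed to 14840 CPM in JVL-14 and 12202 CPM in sham in these barcodes. This choice was made after seeing the data. The class held 2 clusters, and their mix differed, with the myelinating Schwann cluster at 36 of 75 JVL-14 and 24 of 88 sham glial cells. The part of that mix in the summed ratio was not tested. In the cluster led by Fabp7, without these barcodes, the 8 genes had 943 CPM (81 UMIs) over 31 JVL-14 cells and 731 CPM (124 UMIs) over 60 sham cells, a ratio of 1.29 (0.96 to 1.72) whose interval reached 1. Hmgcs1 was near even there, at a ratio of 1.02 (0.50 to 2.02) from 14 UMIs in JVL-14 and 27 UMIs in sham. The ratios of its other measured genes were 1.06 for Sqle, 1.06 for Insig1, 1.29 for Msmo1 and 1.56 for Fdps, all with intervals that reached 1. In the myelinating Schwann cluster, led by Ncmap, Cldn19 and Prx among others, the 8 genes had 1996 CPM (124 UMIs) over 36 JVL-14 cells and 995 CPM (54 UMIs) over 24 sham cells, a ratio of 2.01 (1.45 to 2.81). Its 4 measured genes were all higher in JVL-14, where 52.2% of the cluster's measured genes were. Its oligodendrocyte markers were at 0 in sham and came to 1 Mobp UMI in JVL-14. A single sham barcode held 33.3% of its 54 UMIs and a single JVL-14 barcode 21% of its 124. The dissociation genes summed to 5618 CPM in JVL-14 and 1917 CPM in sham in that cluster, and their part in its difference was not tested.

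**Figure D3:**
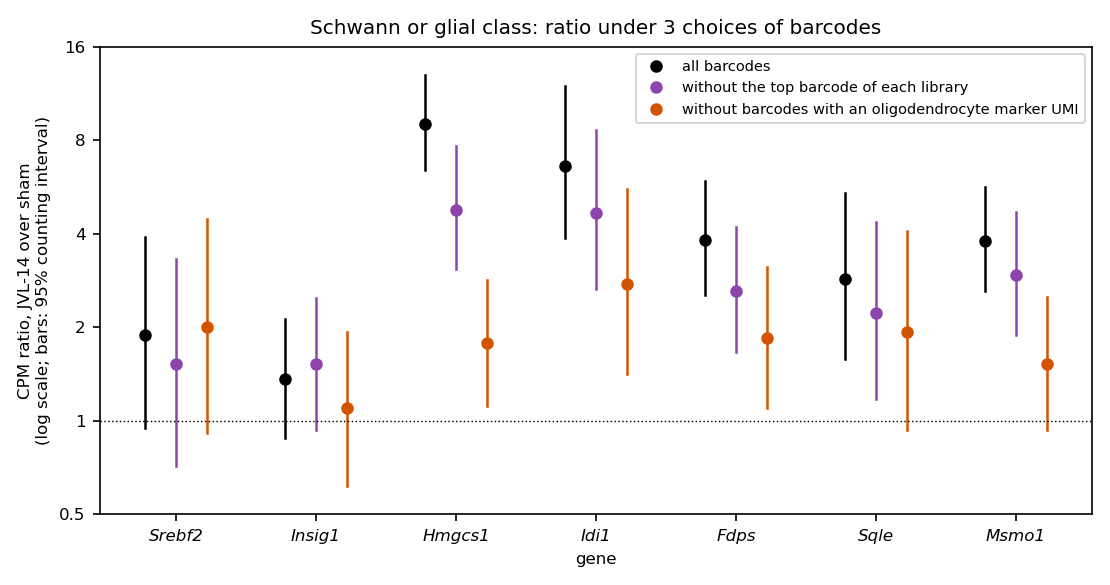
CPM ratio of JVL-14 over sham (log scale, bars are 95% counting intervals) for the 7 measured genes in the Schwann or glial class under 3 choices of barcodes. The Hmgcs1 ratio is 9.02 with all barcodes, 4.78 without the barcode of most member UMIs in each library and 1.78 without the barcodes that had an oligodendrocyte marker UMI.

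Other genes of the pathway in glia mostly went the same way. Of the other synthesis enzymes 9 of 11 measured were higher in JVL-14, where 54.7% of all measured genes were, with a median log2 ratio of 1.26 over all barcodes. Cyp51, which removes a methyl group from lanosterol, had 417 CPM in JVL-14 and 71.3 CPM in sham (5.85, 3.47 to 10.4). Sc5d, a late sterol desaturase, had 277 CPM in JVL-14 and 71.3 CPM in sham (3.88, 2.25 to 7.06), Pmvk, the phosphomevalonate kinase, 179 CPM in JVL-14 and 54.5 CPM in sham (3.28), and Fdft1, which makes squalene, 174 CPM in JVL-14 and 79.7 CPM in sham (2.19). Without the barcodes with an oligodendrocyte marker UMI, 6 of 8 measured enzymes were higher, as were 53.9% of all measured genes, and the median was 0.46. The fatty acid side was mixed. Srebf1, the sister factor of lipid synthesis, had 111 CPM in JVL-14 and 201 CPM in sham (0.55, 0.33 to 0.90), Scd1 315 CPM in JVL-14 and 516 CPM in sham (0.61) and Fads2 136 CPM in JVL-14 and 348 CPM in sham (0.39), and of 9 measured fatty acid genes 4 were higher. Apoe, the main lipid carrier of glia, had 7175 CPM in JVL-14 and 24180 CPM in sham (0.30). The 12 interferon response genes summed to 417 CPM in JVL-14 and 2719 CPM in sham glia, and the 12 dissociation genes to 9422 CPM in JVL-14 and 12898 CPM in sham. The part of these genes in the glial ratios was not tested.

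Arachnoid barrier cells (119 JVL-14 and 407 sham cells) showed a small difference. The class was named from 3 of its 6 markers, none of them among its 10 leading genes, which included Ccn3, Gjb6, Npr3 and Slc4a10. Dpp4 had only 2 UMIs in JVL-14 and 9 in sham, Cdh1 8 in JVL-14 and 15 in sham, and Ppp1r1a 3 in each. Its 8 fibroblast markers summed to 7832 CPM in JVL-14 and 7972 CPM in sham. Its 6 arachnoid barrier markers summed to 1267 CPM in JVL-14 and 1133 CPM in sham. In the fibroblast cluster led by Ntrk2 and Myoc these sums were 19753 CPM and 661 CPM in JVL-14, and 19846 CPM and 661 CPM in sham. The name is therefore tentative. Of 7 measured genes, 6 were higher in JVL-14, where 57.1% of all measured genes were, and none reached 1.5-fold, as 4.41% of all measured genes did. The median log2 ratio was 0.41, against 0.04 for all measured genes, and the summed ratio was 1.22 (1.12 to 1.33). Hmgcs1 had 152 CPM in JVL-14 and 112 CPM in sham (1.36, 1.14 to 1.61). Idi1 had 83.2 CPM in JVL-14 and 60.5 CPM in sham (1.38, 1.08 to 1.74), Msmo1 90.6 CPM in JVL-14 and 68.5 CPM in sham (1.32, 1.05 to 1.65), and Fdps 78.3 CPM in JVL-14 and 60.2 CPM in sham (1.30, 1.02 to 1.65). These 4 enzymes are those whose intervals lie above 1, which was so for 11.8% of all measured genes. Sqle had 28.0 CPM in JVL-14 and 21.2 CPM in sham (1.32, 0.87 to 1.97), and Srebf2 51.9 CPM in JVL-14 and 40.2 CPM in sham (1.29, 0.95 to 1.73). Insig1 went the other way, with 89.8 CPM in JVL-14 and 103 CPM in sham (0.87, 0.70 to 1.08). Lss had 0 UMIs in JVL-14, which allows up to 2.47 CPM, and 15 UMIs in sham, at 3.35 CPM. The 5 barcodes with the most UMIs of the 8 genes held 30.0% of them in JVL-14 and 11.3% in sham. Thinned to 2000 UMIs per cell, the median log2 ratio was 0.16 and that of Idi1 was -0.18, against 0.47 as reported. As a mean over cells, the log2 ratio of Fdps was -0.01, against 0.38 as reported, so the direction of these 2 enzymes depends on those settings.

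Of the other synthesis enzymes 5 of 6 measured in arachnoid barrier cells were higher in JVL-14, where 57.1% of all measured genes were. Their median log2 ratio was 0.09, against 0.04 for all measured genes. Mylip, a ubiquitin ligase that limits sterol uptake, had 109 CPM in JVL-14 and 35.0 CPM in sham (3.11, 2.44 to 3.94). Scd1 had 14.0 CPM in JVL-14 and 28.6 CPM in sham (0.49) and Me1 17.3 CPM in JVL-14 and 30.8 CPM in sham (0.56). All 9 measured genes of the interferon list were lower in JVL-14, and the list summed to 755 CPM in JVL-14 and 1196 CPM in sham. Their part in the difference was not tested.

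**Figure D4:**
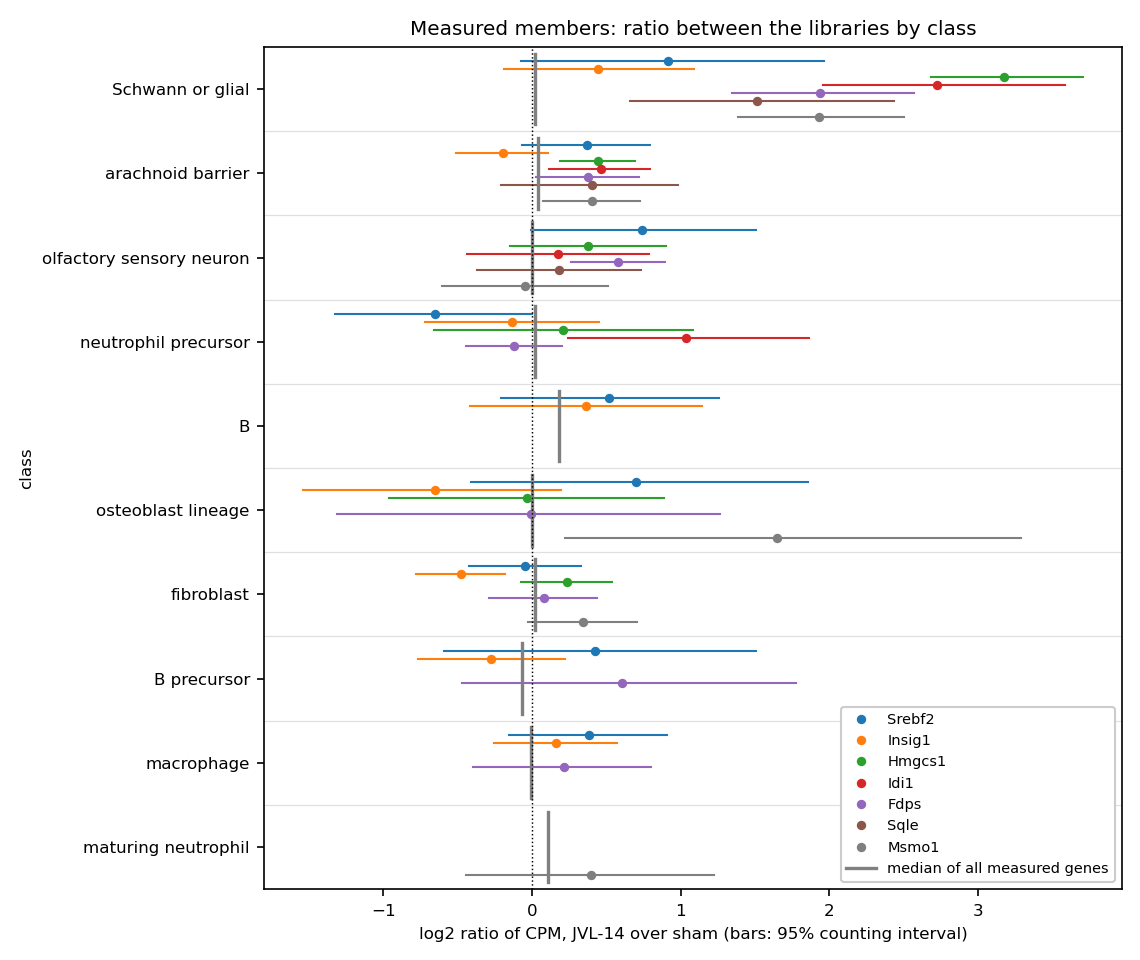
Log2 ratio of CPM, JVL-14 over sham, for each measured gene (coloured points with 95% counting intervals) in the classes with at least 1 of them measured, with the median of all measured genes as a grey bar. Glial enzymes lie far right of the grey bar, arachnoid barrier genes other than Insig1 lie a little to its right, and most other intervals reach 0.

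Fibroblasts (548 JVL-14 and 1081 sham cells) had nearly the same summed level in both libraries, with a ratio of 0.99 (0.90 to 1.09). Of 5 measured genes, 3 were higher in JVL-14, where 53.6% of all measured genes were, and the median log2 ratio was 0.08. Insig1 was the one member with an interval below 1, as 14.9% of all measured genes had, with 37.4 CPM in JVL-14 and 52.1 CPM in sham (0.72, 0.58 to 0.88). Hmgcs1 had 42.7 CPM in JVL-14 and 36.3 CPM in sham (1.18, 0.95 to 1.45) and Msmo1 30.4 CPM in JVL-14 and 24.0 CPM in sham (1.27, 0.98 to 1.63). Srebf2 had 26.6 CPM in JVL-14 and 27.4 CPM in sham and Fdps 28.9 CPM in JVL-14 and 27.4 CPM in sham. The fibroblast clusters did not all look alike. The cluster led by Clec3b and Pi16 had 173 CPM over 73 JVL-14 cells and 258 CPM over 194 sham cells, a ratio of 0.67 (0.53 to 0.85), and all 5 of its measured genes were lower in JVL-14, where 49.6% of its measured genes were. Markers in it also differed. Col1a1 had 4921 CPM in JVL-14 and 2614 CPM in sham, Mfap4 3633 CPM in JVL-14 and 1513 CPM in sham, Pdgfra 173 CPM in JVL-14 and 342 CPM in sham, and Dpp4 1 UMI in JVL-14 and 43 UMIs in sham. All 8 fibroblast markers were detected in both libraries and summed to 38370 CPM in JVL-14 and 31873 CPM in sham, and the dissociation genes summed to 10757 CPM in JVL-14 and 14162 CPM in sham. Their part in the lower level was not tested. In the clusters led by Ntrk2 and Myoc, by Chad and Cilp2 and by Tnmd the summed ratios were 1.04 (0.91 to 1.2), 1.0 (0.81 to 1.24) and 1.0 (0.63 to 1.56). The cluster led by Apod and Slc6a13 had 355 CPM in JVL-14 and 245 CPM in sham (1.45, 0.98 to 2.11).

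A lower level in JVL-14 was measured in an interferon-led cluster that stayed unnamed. Its leading genes were Ifit3, Ifit1 and Isg15, its fibroblast score of 0.499 lay just under the naming limit of 0.5, and its 25 JVL-14 cells are fewer than the 50 asked for a comparison. The 8 genes had 31 UMIs in JVL-14, at 140 CPM, and 434 UMIs over 95 sham cells, at 465 CPM, a ratio of 0.30 (0.20 to 0.43). All 7 measured genes were at least 1.5-fold lower in JVL-14, against 11.6% of the genes measured in this cluster. The median log2 ratio was -1.67, with 0.10 for all measured genes. In JVL-14, Sqle had only 2 UMIs (9.03 CPM), Idi1 3 UMIs, Srebf2 3 UMIs (13.5 CPM) and Msmo1 4 UMIs (18.1 CPM). In sham, Sqle had 33 UMIs, Idi1 60 UMIs, Srebf2 51 UMIs and Msmo1 62 UMIs. These genes therefore counted as measured through their sham levels, and their ratios rest on few JVL-14 UMIs. Hmgcs1 had 31.6 CPM in JVL-14 and 82.5 CPM in sham (0.38, 0.15 to 0.83), Insig1 27.1 CPM in JVL-14 and 86.7 CPM in sham (0.31, 0.11 to 0.71), and Idi1 13.5 CPM in JVL-14 and 64.3 CPM in sham (0.21, 0.04 to 0.65). The UMIs came from 15 of the 25 JVL-14 cells and 75 of the 95 sham cells, and the barcode with the most held 19.4% of them in JVL-14 and 6.91% in sham. Without that barcode of each library the ratio was 0.28 (0.18 to 0.41).

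The 12 interferon genes themselves summed to 13801 CPM in JVL-14 and 12435 CPM in sham in this cluster. Its 8 fibroblast markers summed to 8698 CPM in JVL-14 and 9651 CPM in sham, and its 6 arachnoid barrier markers to 786 CPM in JVL-14 and 591 CPM in sham, with Dpp4, Cdh1 and Ppp1r1a at 0 UMIs in JVL-14 and Cdh1 at 0 UMIs in sham. Single markers differed more than these sums, with Lum at 18.1 CPM (4 UMIs) in JVL-14 and 114 CPM (106 UMIs) in sham, Pdgfra at 22.6 CPM (5 UMIs) in JVL-14 and 75 CPM (70 UMIs) in sham, and Cldn11 at 266 CPM in JVL-14 and 154 CPM in sham. Their part in the lower level was not tested. All 8 fibroblast markers were detected in both libraries, and median depth was 10007 UMIs in JVL-14 and 10253 UMIs in sham. The summed level of the 8 genes in sham cells of this cluster (422 to 511 CPM) overlapped with those of sham arachnoid barrier and choroid plexus cells. The level in its JVL-14 cells (95.1 to 199 CPM, from 31 UMIs) overlapped with those of JVL-14 fibroblasts, B cells, B precursors, osteoblast lineage cells, macrophages and maturing neutrophils. These overlaps do not name the cells. Other synthesis enzymes were less uneven, with 4 of 6 measured lower in JVL-14 and a median log2 ratio of -0.46, against 0.10 for all measured genes.

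Cells were also taken by interferon content whatever their cluster, a choice made after seeing the data. Among fibroblasts, arachnoid barrier cells and the unnamed cluster, 22 JVL-14 and 98 sham cells had at least 0.5% of their UMIs in the 12 interferon genes. In them the 8 genes had 268 CPM in JVL-14 and 594 CPM in sham, a ratio of 0.45 (0.32 to 0.61), but 62.2% of the 45 JVL-14 UMIs came from 1 barcode. Below that limit the levels were 283 CPM over 670 JVL-14 cells and 291 CPM over 1485 sham cells, a ratio of 0.97 (0.91 to 1.04). Leaving out the arachnoid barrier cells, the ratio above the limit was 0.24 (0.13 to 0.41), from 15 UMIs in 19 JVL-14 cells and 310 UMIs in 75 sham cells. In the arachnoid barrier cells above the limit it was 1.01 (0.67 to 1.48), from 30 UMIs in 3 JVL-14 cells and 252 UMIs in 23 sham cells. There 93.3% of the JVL-14 UMIs came from 1 barcode. This set can hold the same barcodes as the unnamed cluster, and the overlap was not counted, so it is no separate check.

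**Figure D5:**
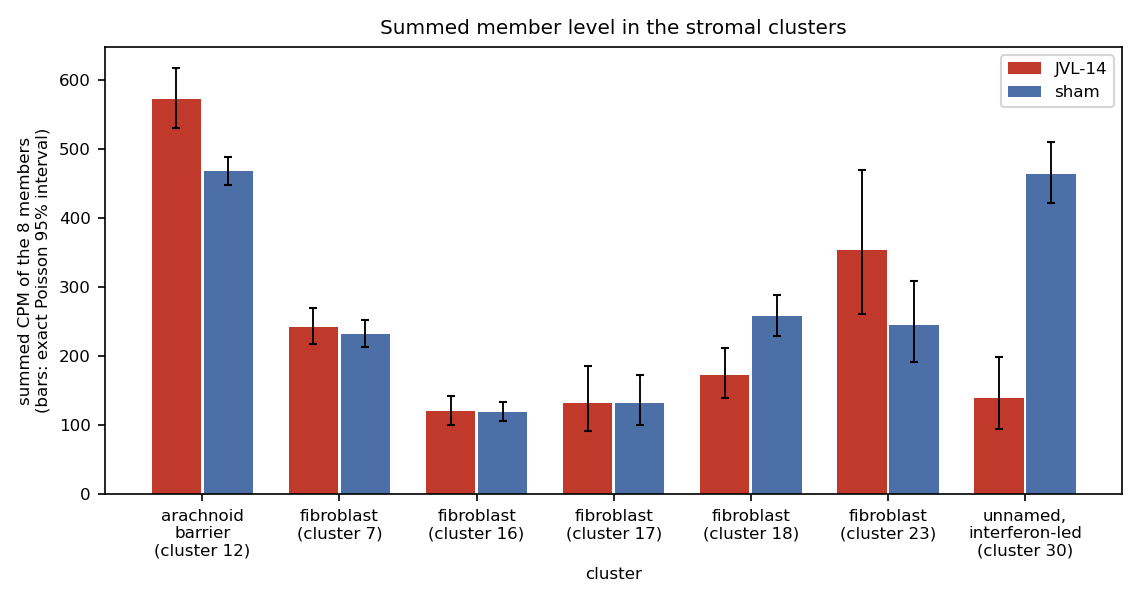
Summed CPM of the 8 genes by cluster, JVL-14 (red, left) beside sham (blue, right), with exact Poisson 95% intervals. The unnamed interferon-led cluster has 140 CPM in JVL-14 and 465 CPM in sham, while the arachnoid barrier cluster has 573 CPM in JVL-14 and 468 CPM in sham and 3 of the 5 fibroblast clusters are level.

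Olfactory sensory neurons, the odour-sensing cells of the nasal lining, numbered 190 in JVL-14 and 173 in sham. Of 6 measured genes, 5 were higher in JVL-14, where 49.9% of all measured genes were, with a median log2 ratio of 0.28. Fdps had 127 CPM in JVL-14 and 85.4 CPM in sham (1.49, 1.2 to 1.86), and was the only one of the 6 with an interval above 1, against 8.82% of all measured genes. Srebf2 had 26.1 CPM in JVL-14 and 15.6 CPM in sham (1.67, 0.997 to 2.84), and Hmgcs1 45.2 CPM in JVL-14 and 34.9 CPM in sham (1.30, 0.90 to 1.87). Insig2, a relative of Insig1, had 36.9 CPM in JVL-14 and 23.4 CPM in sham (1.57, 1.03 to 2.43).

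Blood cells were more mixed. In neutrophil precursors (86 JVL-14 and 60 sham cells, median depth 7707 UMIs in JVL-14 and 19197 UMIs in sham) 2 of 5 measured genes were higher in JVL-14, where 51.1% of all measured genes were. Idi1 had 36.6 CPM in JVL-14 and 17.9 CPM in sham (2.05, 1.18 to 3.64), and Srebf2 28.8 CPM in JVL-14 and 45.2 CPM in sham (0.64, 0.40 to 1.002). Both genes that were higher, Idi1 and Hmgcs1 (22.7 CPM in JVL-14 and 19.6 CPM in sham), reached 20 CPM in JVL-14 only. B cells had a summed ratio of 1.43 (1.07 to 1.91) and all measured genes there a median log2 ratio of 0.18, with Srebf2 at 75 CPM in JVL-14 and 52.3 CPM in sham and Insig1 at 62.8 CPM in JVL-14 and 48.9 CPM in sham. Of all genes measured in B cells, 67.8% were higher in JVL-14, so 2 of 2 members is near the background. In B precursors 2 of 3 members were higher, against 43.5% of all genes, and no interval left out 1. Macrophages had 3 of 3 measured genes higher, against 49.5% of all genes, at ratios of 1.12 for Insig1, 1.31 for Srebf2 and 1.16 for Fdps, all with intervals that reached 1. Pmvk in macrophages had 17.1 CPM in JVL-14 and 27.8 CPM in sham (0.62, 0.38 to 0.97). Monocytes and dendritic cells had under 50 JVL-14 cells each. Monocytes had 359 CPM over 39 JVL-14 cells and 262 CPM over 95 sham cells (1.37, 1.09 to 1.73), and dendritic cells 411 CPM over 43 JVL-14 cells and 264 CPM over 98 sham cells (1.56, 1.27 to 1.90).

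Osteoblast lineage cells (57 JVL-14 and 83 sham cells) had 3 of 5 measured genes higher in JVL-14, against 50.2% of all genes, and a median log2 ratio of 0.00. Msmo1 had 36.6 CPM (16 UMIs) in JVL-14 and 11.7 CPM (6 UMIs) in sham (3.13, 1.16 to 9.78), and Insig1 43.4 CPM in JVL-14 and 68.1 CPM in sham (0.64, 0.34 to 1.15). All 10 measured dissociation genes were higher there, summing to 4526 CPM in JVL-14 and 2736 CPM in sham, and their part in these ratios was not tested. In maturing neutrophils only Msmo1 was measured, with 36.8 CPM in JVL-14 and 27.9 CPM in sham (1.32, 0.73 to 2.33), where 59.5% of all genes were higher. Erythroid cells had no measured member, with 85 UMIs of the 8 genes in JVL-14 and 7 in sham. The JVL-14 cells were mostly of a cluster of 77 JVL-14 and 12 sham cells. Its 10 proliferation genes summed to 3113 CPM in JVL-14 and 64.4 CPM in sham, where 2 of the 10 were detected, so the word cycling applies to its JVL-14 cells only. In the haemoglobin-led cluster (30 JVL-14 and 63 sham cells) the 8 genes had 2 UMIs in JVL-14 and 6 in sham.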

How the data were processed

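The authors deposited raw UMI counts per gene and barcode for 2 libraries, written by Cell Ranger 8.0.0 per the file headers, with build mm39 per the submitters' processing notes. The sources used here do not name the gene annotation. Retained barcodes had 200 genes or more and at most 10% mitochondrial UMIs. Scrublet's automatic threshold marked 0.230% of JVL-14 and 0.121% of sham barcodes, so the top 5% of scores (135 in JVL-14 and 281 in sham) were removed. Cells of both libraries were clustered without integration and without 54 sterol and lipid genes (scanpy 1.11.5, 2000 variable genes, 30 components, 15 neighbours, Leiden resolution 1), which gave 37 clusters. A cluster was named from markers of 40 classes if at least 3 were raised 1.5-fold and detected in 10% of its cells, its mean score was at least 0.5 and markers of another class did not outnumber its own among the 10 leading genes, and 3 clusters stayed unnamed. Classes with at least 3 such markers were ranked ahead of the others, and then by mean score, so a class of higher score could come second. No authors' cell annotation was used here. Numeric naming limits were set with the data in view.

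UMIs were summed per class and library. Levels carry exact Poisson, shares Clopper-Pearson and ratios conditional binomial 95% intervals, for counting error only. Log2 ratios of lists add 0.5 to each count, and a median needs at least 5 measured genes. A count of 0 allows up to 3 counts. The named genes are the 8 members and listed genes with at least 30 UMIs in the higher library, at least 1.5-fold apart, with an interval that leaves out 1, plus the 8 genes of most like pattern; a few genes the rule names are not reported here. Members, lists and rules were chosen with earlier results of these data known. Intervals were tried on simulated independent Poisson counts, the error they assume. That simulation had no barcodes holding many counts, so it does not show how the intervals hold in such classes. Promoter windows were matched by symbol to RefSeq (GRCm38.p6). Alternatives changed doublets, filters, clustering resolution, thinning, weighting and low-value limits.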

Additional observations from a re-analysis of the deposited data

How the results depend on the processing

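The alternatives gave 543 values for 44 single-gene ratios, and 46 of these values, in 21 of the ratios, had the other sign than reported. In 2 of the 46 the reported ratio was at least 1.5-fold: Srebf2, thinned to 2000 UMIs per cell, had a log2 ratio of -0.36 in glia and -0.14 in olfactory sensory neurons. The glial median log2 ratio, 1.91 as reported, was 0.90 with at least 500 genes per cell, 1.29 as a mean over cells and 0.88 without barcodes with an oligodendrocyte marker UMI (added after seeing the data); without the barcode of most member UMIs in each library it was 1.37. In every run that gave a glial median, it stayed between 0.88 and 2.44. The low end is the run without the barcodes with an oligodendrocyte marker UMI. No other run left these barcodes out by rule, so the range does not check their weight. The number of fibroblast members higher in JVL-14, 3 of 5 as reported, was 5 without doublet removal, 0 at a limit of 5% mitochondrial UMIs, 5 with at least 500 genes per cell and 5 at resolution 2, so the fibroblast direction is not settled. It was 4 rather than 2 in neutrophil precursors at 5% mitochondrial UMIs and with no filter on low values, 3 rather than 5 in thinned olfactory sensory neurons, and 5 rather than 3 in osteoblast lineage cells with no filter. The share of all measured genes higher in each of these runs is not given here. These counts therefore cannot be told apart from a shift of all genes. Adding the unnamed interferon-led cluster to the fibroblasts, a choice made after seeing the data, gave a median of -0.19. Arachnoid barrier cells were not found as a class without doublet removal, with at least 500 genes per cell or at resolution 2, and elsewhere their median lay between 0.16 and 0.47. The cause of these changes was not tested. Few UMIs in glia, monocytes and the interferon-led cluster limit their ratios. No paired analysis was possible because each group has 1 library.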

Other observations

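Apoe, outside the 8 genes, was lower in JVL-14 in 3 blood cell classes as well as in glia. It had 103 CPM in JVL-14 and 600 CPM in sham neutrophil precursors (ratio 0.17, 0.14 to 0.21), 32.8 CPM in JVL-14 and 122 CPM in sham B precursors (0.27, 0.17 to 0.41) and 73.5 CPM in JVL-14 and 217 CPM in sham erythroid cells (0.34, 0.27 to 0.43). Free RNA was not measured in empty droplets here, and its part in these values was not tested. Mylip, 3.11-fold higher in JVL-14 arachnoid barrier cells, was lower in JVL-14 B precursors, with 108 CPM in JVL-14 and 201 CPM in sham (0.54, 0.42 to 0.70), and in B cells, with 68.9 CPM in JVL-14 and 111 CPM in sham (0.62, 0.40 to 0.95). The difference between these classes was not tested.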
